A study of Mus musculus with 4 samples.

Results

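Among 17778 genes measured in the medial prefrontal cortex (mPFC) of mice, 7 genes of upper-layer cortical neurons were examined. They were Cux1, Cux2, Rorb, Rasgrf2, Calb1, Pou3f2 and Mef2c. The 7 genes were chosen by symbol as known genes of upper-layer neurons, and each symbol matched 1 row of the table. They and the gene lists set beside them were chosen with earlier results of these data known. Messenger RNA was sequenced from C57BL/6 mice (C57BL/6J in the methods of the study) with depression-like behavior after chronic unpredictable mild stress (CUMS, 2 libraries) and from mice that lived without the stress (control, 2 libraries). By the methods of the study the mice were males that were juvenile when the experiment began. Tissue was taken later, after the weeks of adaptation and stress and the behavior tests. The CUMS mice were the minority of stressed animals that changed in every behavior test, so that resilient animals were not among them. No transgene, deletion or drug was used, and the control mice carried no treatment. RNA was isolated from the tissue of each mouse, but whether a library came from a single mouse is not stated. The tissue is a mixture of cells, so that fewer cells of a type and less RNA per cell cannot be told apart.

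The neocortex is built in layers. Neurons of the upper layers connect cortical areas with each other, and those of the deep layers send axons to targets outside the cortex. Upper-layer neurons are told from deep-layer neurons by a set of transcription factors that are switched on as the neurons are born and settle. Cux1 and Cux2 are a pair of Cut-type homeobox factors of upper-layer neurons that shape dendrites and synapses. Rorb is an orphan nuclear receptor best known from layer 4, a layer that is thin or missing in the mouse mPFC. Pou3f2 (also Brn2) is a POU factor of upper-layer neuron production and migration. Mef2c is a MADS-box factor that regulates genes of synapses and neuron survival. The remaining members are not transcription factors. Rasgrf2 activates Ras after calcium entry, and Calb1 encodes calbindin, a protein that buffers calcium. Most of these genes are not restricted to upper-layer neurons. Calb1 is also made by some interneurons and by striatal neurons, Mef2c by interneurons, microglia and endothelial cells, Cux1 by many cell types, Rorb by astrocytes and thalamic neurons, and Pou3f2 by glial precursors.

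The table holds 1 value per gene and group, the authors' mean of 2 libraries in RPKM, which divides the reads of a gene by its length and by the reads of its library. There is no value for a single library, so that the spread between mice is unknown and no difference could be tested against it. From the smallest steps between low values, a control library was estimated to hold 7374631 fragments and a CUMS library 7429421. Intervals in parentheses are exact 95% intervals from the estimated fragment numbers. The exceptions are those of a difference between the log2 ratios of a pair of genes, which use a normal approximation. They cover counting error only. The background for each count is the 14257 genes that reached 0.5 RPKM in control, in CUMS or in both. All 7 upper-layer genes passed this minimum in both groups. All 9 general genes of cortical excitatory neurons were found in the sampled tissue, from 9.28 RPKM (Emx1) to 828 RPKM (Camk2a) in control. Slc17a7, the vesicular glutamate transporter, stood at 635 RPKM in control and at 791 RPKM in CUMS.

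The start regions of the Cux pair are shown because these close relatives went in different directions. One of several start regions of Mef2c is shown because Mef2c had the highest level. Which start sites were in use in this tissue was not measured. In the GENCODE M21 annotation the longest Cux1 transcript begins at position 136567445 of chromosome 5, outside the Cux1 window shown. The Cux1 transcript closest to the deposited gene length begins at position 136567264, which is also outside it. Each sequence runs from 250 bases before to 50 bases after an annotated start site, on the minus strand for Cux1 and Cux2 and on the plus strand for Mef2c (RefSeq, GRCm38.p6). They lie at chr5:136565932-136566231 for Cux1, at chr5:122049802-122050101 for the first and chr5:122047776-122048075 for the second start of Cux2, and at chr13:83523406-83523705 for Mef2c. Capitals mark matches to the 6 motifs named in the next paragraph, which for Mef2c lie on the opposite strand and so read as their reverse complement.
Cux1: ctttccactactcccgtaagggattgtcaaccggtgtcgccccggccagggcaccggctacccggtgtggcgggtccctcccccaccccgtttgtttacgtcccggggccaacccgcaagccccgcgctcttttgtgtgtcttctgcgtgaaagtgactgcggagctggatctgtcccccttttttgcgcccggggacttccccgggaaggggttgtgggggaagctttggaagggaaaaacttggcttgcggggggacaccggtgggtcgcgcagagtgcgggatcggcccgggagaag
Cux2, first start: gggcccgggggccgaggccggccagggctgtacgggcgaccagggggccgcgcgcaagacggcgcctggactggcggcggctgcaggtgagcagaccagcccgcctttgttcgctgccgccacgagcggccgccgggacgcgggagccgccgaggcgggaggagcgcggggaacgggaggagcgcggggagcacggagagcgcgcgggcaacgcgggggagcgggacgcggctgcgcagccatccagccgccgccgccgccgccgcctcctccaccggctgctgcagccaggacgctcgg
Cux2, second start: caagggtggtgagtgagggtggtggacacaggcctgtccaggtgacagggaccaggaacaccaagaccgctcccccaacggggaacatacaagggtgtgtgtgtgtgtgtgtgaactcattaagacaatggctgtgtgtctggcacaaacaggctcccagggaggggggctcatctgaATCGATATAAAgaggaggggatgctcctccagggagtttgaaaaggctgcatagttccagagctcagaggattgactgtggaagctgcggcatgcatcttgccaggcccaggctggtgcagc
Mef2c: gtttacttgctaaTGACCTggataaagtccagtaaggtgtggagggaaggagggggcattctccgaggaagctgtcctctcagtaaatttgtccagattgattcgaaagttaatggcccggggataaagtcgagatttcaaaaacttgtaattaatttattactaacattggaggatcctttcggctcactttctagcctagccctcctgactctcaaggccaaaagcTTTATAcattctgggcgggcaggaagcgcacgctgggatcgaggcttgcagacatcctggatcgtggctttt

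The table of start regions held 10 windows for 6 of the 7 genes, and Calb1 was not among them. The windows of the first Cux2 start and of Cux1 were rich in CG pairs, with 48 and 25 pairs in 300 bases, against a median of 7 over 32851 windows of all genes. The second Cux2 window held 4 pairs and the Mef2c window shown held 10. Motifs were searched on both strands. ATCGAT, a core bound by Cut homeobox factors, was found in 0.925% of all windows. It began at -72 from the second Cux2 start site and was found in no other window of these genes. There it shared 1 base with TATAAA, the core of a TATA box, which began at -67 and was found in 13.6% of all windows. TATAAA was also found at -22 in the Mef2c window shown and at -107 in another Mef2c window. AGGTCA, a half-site of nuclear receptors, was found in 16.3% of all windows and, among these genes, in 2 windows of Mef2c. ATGCAAAT, the octamer of POU factors (1.74% of all windows), TATTTTTA, a core bound by MEF2 factors (2.72%), and TGACGTCA, the cyclic AMP response element (1.79%), were found in none of the 10 windows. A match of letters is a description of the sequence and not a measured binding site.

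The first comparison asked in which direction the upper-layer genes differed in mice with depression-like behavior. Cux2, Calb1, Mef2c, Rorb and Rasgrf2 were higher in CUMS, and Cux1 and Pou3f2 were lower, although Rorb and Rasgrf2 turn lower when set against general excitatory genes as given further on. The share of all genes with a higher mean in CUMS was 46.6%, and that with a lower mean was 53.2%. None of the 7 genes passed a 1.5-fold change, which 2.78% of all genes passed upward and 4.42% downward. The counting interval lay above 0 in 4 of the 7 genes (Cux2, Calb1, Mef2c and Rorb) and below 0 in 1 gene (Cux1). It lay above 0 in 12.5% and below 0 in 16.7% of all genes. The median log2 ratio of the 7 genes was 0.25, against -0.02 over all genes. Without Cux2, Calb1 or Mef2c it was 0.15, so that it depends on which genes are in the list.

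**Figure D1:**
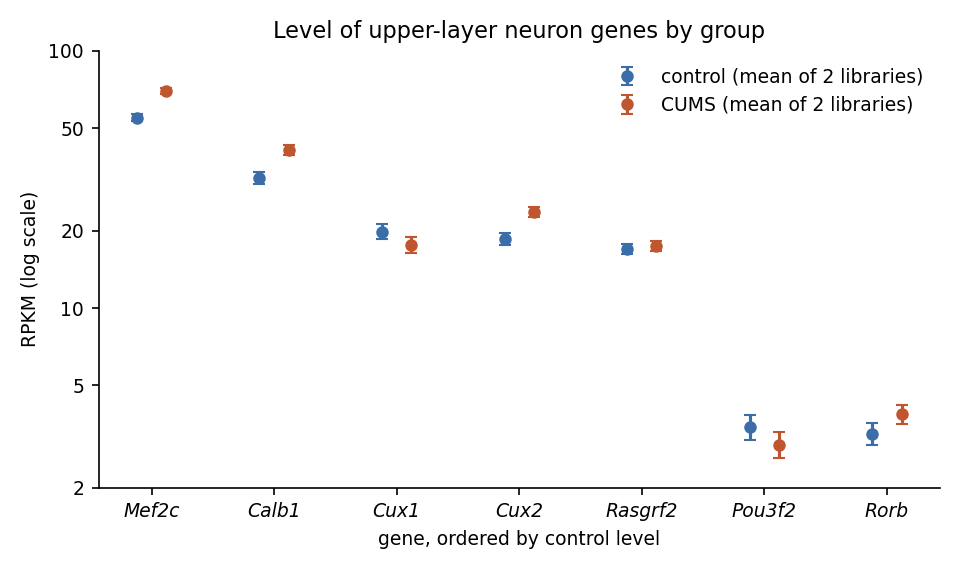
Level of each gene in RPKM on a log scale, in the order of the control level, as the authors' mean of 2 control and 2 CUMS libraries; bars are 95% counting intervals and do not cover differences between mice. Mef2c, Calb1 and Cux2 are higher in CUMS with intervals that do not overlap, whereas the intervals of Cux1, Rasgrf2, Pou3f2 and Rorb overlap between groups.

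Among the transcription factors, Mef2c (gene 17260, chromosome 13, 83504017 to 83667079) had the highest level. The authors' mean of Mef2c was 55.02 RPKM in control against 69.8 RPKM in CUMS, which correspond to 5195 and 6640 fragments. The log2 ratio was 0.34 (0.29 to 0.40), a 1.27-fold higher level. This is the narrowest interval of the 7 genes, since Mef2c had the most fragments. Its rank among all genes of the table moved from 1446 in control to 1142 in CUMS.

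Cux2 (gene 13048, chromosome 5, 121857962 to 122050415) measured 18.525 RPKM in control against 23.645 RPKM in CUMS, from 1402 and 1803 fragments. Its log2 ratio of 0.35 (0.25 to 0.45) was close to that of Mef2c. Cux1 (gene 13047, chromosome 5, 136248135 to 136567590) went the other way as a gene, with its transcripts not separated. Cux1 measured 19.815 RPKM in control against 17.585 RPKM in CUMS, from 897 and 802 fragments, a log2 ratio of -0.17 (-0.31 to -0.03). The log2 ratio of Cux2 exceeded that of Cux1 by 0.52 (0.35 to 0.69 by a normal approximation of the counting error). The level of Cux2 was 0.935 of that of Cux1 in control and 1.35 of it in CUMS.

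Rorb (gene 225998, chromosome 19, 18930609 to 19111196) was low in both groups, with 3.245 RPKM in control and 3.86 RPKM in CUMS. Its 422 and 506 fragments gave a log2 ratio of 0.25 (0.06 to 0.44). Pou3f2 (gene 18992, chromosome 4, 22482095 to 22488366) was as low as Rorb, with 3.45 RPKM in control and 2.935 RPKM in CUMS. Pou3f2 rested on 319 and 274 fragments, and its log2 ratio of -0.23 had an interval from -0.47 to 0.01 that includes equal levels. Both calls turn on the estimated depth, which lies below the read numbers of the study. At 2 times that depth the interval of Pou3f2 would be -0.40 to -0.06 and exclude equal levels, and at 0.5 of it those of Rorb (-0.02 to 0.52) and Cux1 (-0.37 to 0.03) would include them.

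Of the calcium and Ras genes, Calb1 (gene 12307, chromosome 4, 15881264 to 15906709) measured 32.155 RPKM in control against 41.165 RPKM in CUMS. Its 1360 and 1754 fragments gave a log2 ratio of 0.36 (0.25 to 0.46), the highest of the 7 genes and close to those of Cux2 and Mef2c. Rasgrf2 (gene 19418, chromosome 13, 91880407 to 92131828) had nearly the same mean in both groups, 17 RPKM in control and 17.49 RPKM in CUMS. Its 1904 and 1974 fragments gave a log2 ratio of 0.04, and the upper end of its interval, from -0.05 to 0.13, lay below the lower ends for Cux2, Calb1 and Mef2c.

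The log2 ratios were also read against 8986 genes whose control level lay within the range of the 7 genes, from 3.245 to 55.02 RPKM. The central 90% of these genes had log2 ratios from -0.37 to 0.28. Cux2, Calb1 and Mef2c lay above this range, at percentiles 97.5, 97.6 and 97.4. Rorb lay inside it at percentile 93.6, as did Rasgrf2 (64.2), Cux1 (19.3) and Pou3f2 (12.6). Percentiles describe these group means and are not a test.

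**Figure D2:**
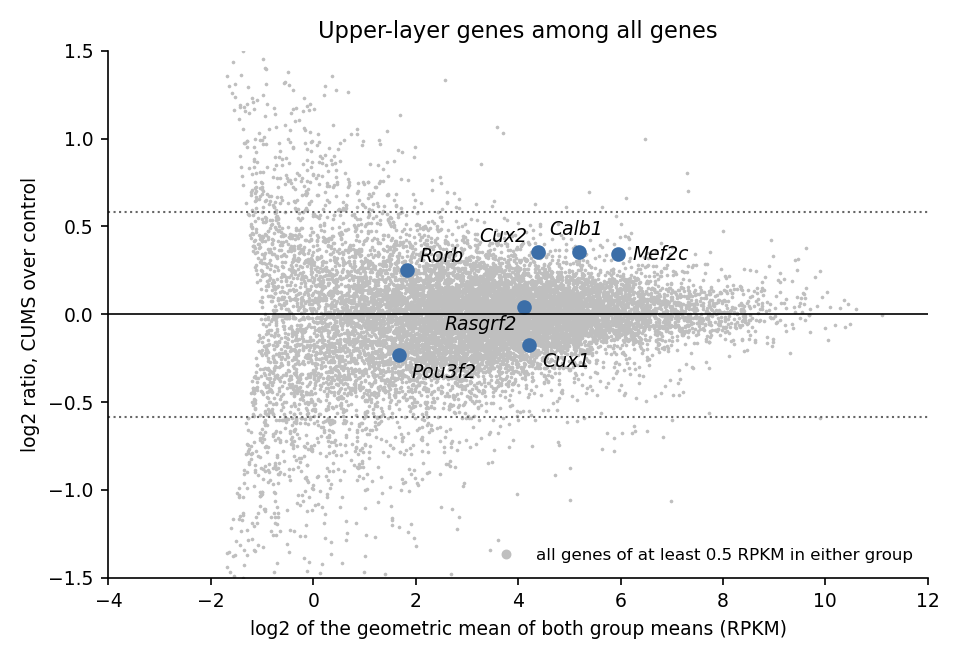
Log2 ratio of CUMS over control against the log2 of the geometric mean of both group means in RPKM, for genes that reached 0.5 RPKM in a group (grey) and the 7 upper-layer genes (blue); dotted lines mark a 1.5-fold change, and 146 genes with an absolute log2 ratio above 1.5 lie outside the axis. Cux2, Calb1 and Mef2c sit at the upper edge of the cloud for their level, at log2 ratios of 0.34 to 0.36, and all 7 genes sit inside the dotted lines.

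The order of the levels in control was Mef2c, Calb1, Cux1, Cux2, Rasgrf2, Pou3f2 and Rorb. The neighbours Cux1 and Cux2 did not differ beyond counting error (log2 difference of levels 0.10, -0.02 to 0.22), nor did Pou3f2 and Rorb (0.09, -0.13 to 0.30). In CUMS the order was Mef2c, Calb1, Cux2, Cux1, Rasgrf2, Rorb and Pou3f2. There Cux1 and Rasgrf2 did not differ beyond counting error (0.01, -0.11 to 0.13), whereas Cux2 lay above Cux1 (0.43, 0.31 to 0.55) and Rorb above Pou3f2 (0.40, 0.18 to 0.61). The gap between the group of Mef2c, Calb1, Cux1, Cux2 and Rasgrf2 and the pair of Pou3f2 and Rorb was the widest step in either group.

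A level per length depends on the length assigned to the gene. For Cux1 this length was 3069 bases, whereas its 9 coding transcripts in GENCODE M21 range from 805 to 12862 bases. The closest transcript in length, with 2831 bases, ends at position 136248135 of chromosome 5. The longest ends at position 136266415 and so has another 3' end. If the same fragments were divided by the longest transcript, Cux1 would be at 4.73 RPKM in control and 4.20 RPKM in CUMS, nearer to the 3.45 RPKM of Pou3f2 in control than to the level of Cux2. The deposited table does not separate these forms, so that the place of Cux1 in the order is uncertain. Its ratio between groups does not depend on a fixed length, but it covers all forms of the gene together. Whether the transcripts of the homeobox factor were lower in CUMS was not tested. For Cux2 the length was 5133 bases, close to a transcript of 5113 bases that begins at the second start shown above. The longest Cux2 transcript has 8784 bases. The lengths of Rorb, Mef2c, Pou3f2, Calb1 and Rasgrf2 were between 0.679 and 1.31 times those of their longest transcripts.

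**Figure D3:**
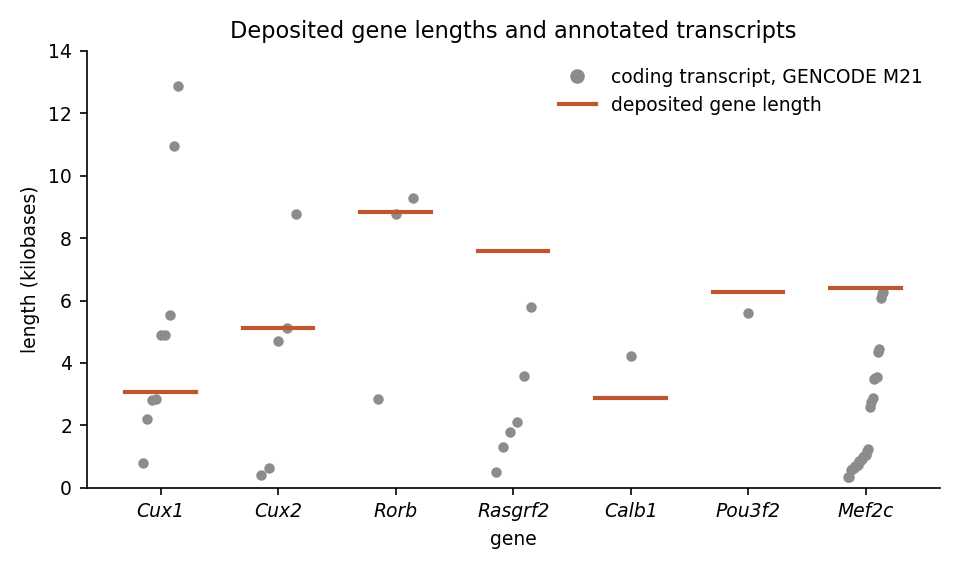
Gene length in kilobases behind the deposited RPKM (red line) and the length of each coding transcript of GENCODE M21 (grey points) for the 7 genes. The deposited length of Cux1, 3069 bases, lies far below its longest transcript of 12862 bases, whereas that of Rorb lies near its longest transcripts.

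GENCODE lists 4 genes that overlap the span of Cux1 and 2 that overlap Cux2, among them an antisense gene to Cux1 (Gm16599) and a pair antisense to Cux2 (Gm3970 and Gm15637). None of the 6 overlapping genes has a row in the table. Since the use of strand in counting is not stated, reads of the antisense genes and of their partners could not be told apart. The spans of Rorb, Rasgrf2, Calb1, Pou3f2 and Mef2c overlapped no other gene.

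The second comparison set each gene beside relatives of its protein family, a list of 12 genes. In this list 10 genes reached 0.5 RPKM, with 4 higher and 6 lower in CUMS and a median log2 ratio of -0.03. Calbindin and its close relative calretinin (Calb2), a marker of interneurons and of olfactory bulb neurons, went in opposite directions. Calb2 measured 36.075 RPKM in control against 19.115 RPKM in CUMS, a log2 ratio of -0.92 (-1.09 to -0.74), past the 1.5-fold change. Calb1 was at 0.891 of the level of Calb2 in control and at 2.15 times its level in CUMS. Parvalbumin (Pvalb), a further calcium buffer of interneurons, had a log2 ratio of 0.19 (-0.04 to 0.41).

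In the MEF2 family, Mef2d had means of 63.71 RPKM in control and 62.7 RPKM in CUMS, a log2 ratio of -0.02 (-0.11 to 0.06). The log2 ratio of Mef2c exceeded that of Mef2d by 0.37 (0.27 to 0.46), so that per length Mef2d was the higher one in control and Mef2c in CUMS. Mef2a, at 12.965 RPKM in control, had a log2 ratio of 0.17 (0.00071 to 0.34). Mef2b was under 0.5 RPKM in both groups. All 4 class 3 POU genes had a lower mean in CUMS, and each interval included equal levels. Besides Pou3f2 at -0.23, the log2 ratios were -0.03 for Pou3f1, -0.05 for Pou3f3 and -0.34 (-0.79 to 0.10) for Pou3f4. Pou3f3, a partner of Pou3f2 in upper-layer neuron production, was 30.45 RPKM in control, and Pou3f2 was at 0.113 of that level.

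Rasgrf1 measured 124 RPKM in control against 119 RPKM in CUMS, a log2 ratio of -0.06 (-0.11 to -0.01), and Rasgrf2 was at 0.137 of its level in control. Satb1, a homeobox gene with Cut-type domains, had a log2 ratio of 0.10 (-0.0050 to 0.22). Rora, a relative of Rorb, was under 0.5 RPKM in both groups.

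**Figure D4:**
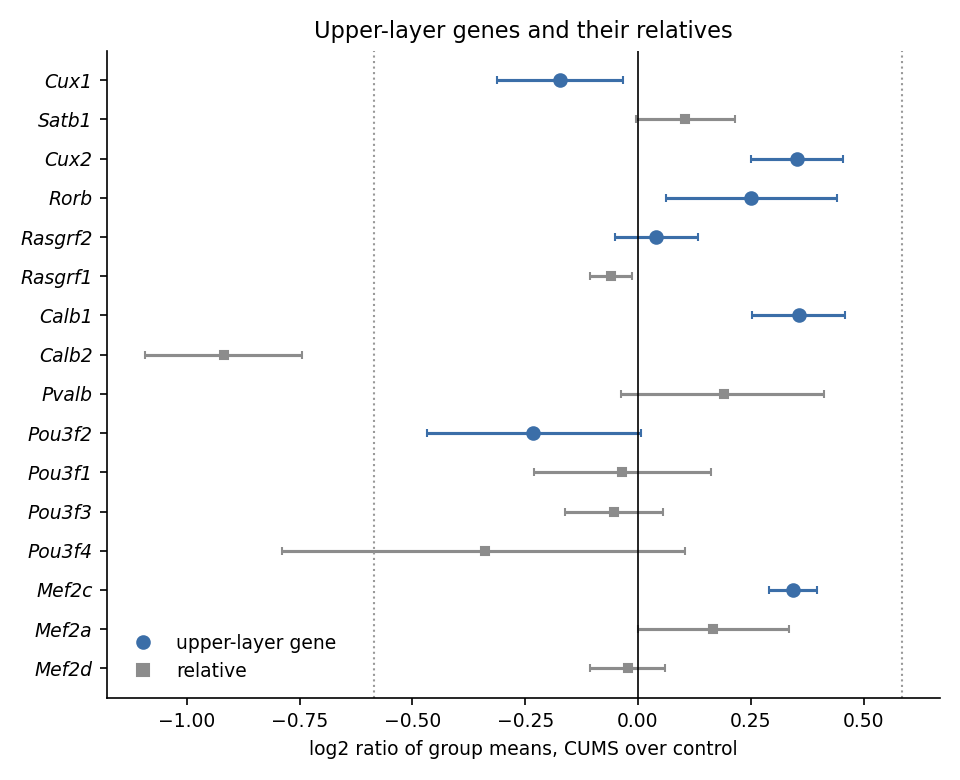
Log2 ratio of CUMS over control for the 7 upper-layer genes (blue circles) and 9 of the relatives that reached 0.5 RPKM in a group (grey squares); bars are 95% counting intervals and dotted lines mark a 1.5-fold change. Cux2, Rorb, Calb1 and Mef2c lie to the right of 0, and Calb2, at -0.92, lies left of the lower dotted line.

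The third comparison asked whether other genes of the upper layers moved as the 7 genes did. In a list of 16 such genes, 8 were higher and 8 lower in CUMS, with a median log2 ratio of 0.02, or 0.09 over those of at least 5 RPKM. The list contains Pou3f1 and Pou3f3, which are also relatives of Pou3f2. The counting interval lay above 0 in 3 genes, among them Lamp5, a membrane protein (0.33), and Plxnd1, a semaphorin receptor (0.31). The interval lay below 0 in 3 genes as well, namely Mdga1, Cartpt and Wfs1. Mdga1, an adhesion protein of upper-layer neurons, measured 8.24 RPKM in control against 3.845 RPKM in CUMS, a log2 ratio of -1.10 (-1.27 to -0.93), the lowest of the list. Cartpt, the precursor of a peptide that is also abundant in the hypothalamus, had a log2 ratio of -0.58 (-0.87 to -0.28), and Wfs1 one of -0.09. Mdga1 and Inhba (-0.96, -2.27 to 0.15) passed a 1.5-fold change. Scnn1a, a layer 4 gene, had the highest ratio, 0.55 (-0.0028 to 1.14), at 0.875 RPKM in control.

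Among 16 deep-layer genes, 10 were higher and 6 lower in CUMS, with a median log2 ratio of 0.08. The interval lay above 0 in 6 genes and below 0 in 1. Ntsr1, a receptor of layer 6 neurons, had the highest log2 ratio, 0.77 (0.52 to 1.01), and Syt6 the lowest, -0.26 (-0.39 to -0.12). The median of the 7 upper-layer genes exceeded that of the deep-layer genes by 0.17, or by 0.26 over genes of at least 5 RPKM, and the range of the 7 genes, from -0.23 to 0.36, lay within that of the deep-layer genes. The ranges of both lists thus overlapped.

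All 9 general genes of cortical excitatory neurons were higher in CUMS, each with an interval above 0, and their median log2 ratio was 0.33. The ratio was 0.32 for Slc17a7, 0.21 for the kinase gene Camk2a, 0.36 for Neurod2 and 0.65 for Emx1. Set against this median, Cux2 (0.03, -0.07 to 0.13), Calb1 (0.03, -0.07 to 0.13) and Mef2c (0.02, -0.03 to 0.07) were near 0. Rorb turned to -0.075 (-0.26 to 0.12). Rasgrf2 was at -0.28 (-0.38 to -0.19), Cux1 at -0.50 (-0.64 to -0.36) and Pou3f2 at -0.56 (-0.79 to -0.32). On this scale 3 of the 7 genes were higher and 4 were lower in CUMS, but the intervals of the 3 higher genes and of Rorb included 0. The scale lowers the log2 ratio of every gene by 0.33, and the share of all genes that stays higher is not given. The intervals on this scale leave out the error of the excitatory median itself.

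Genes of other cells and of other brain regions also differed between the groups. All 9 striatal genes were lower in CUMS, with a median log2 ratio of -0.28, and their summed level was 556 RPKM in control against 458 RPKM in CUMS. Of 14 measured genes of the septum and hypothalamus, 11 reached 0.5 RPKM and all of these were lower. Their list summed to 170 RPKM in control and 94.0 RPKM in CUMS, and 1 of its genes, Agrp, was listed at the value that stands for 0 in control. All 7 olfactory bulb genes were lower, with sums of 68.565 and 31.955 RPKM, and Omp was listed at that value in CUMS. All 6 oligodendrocyte genes were lower, with sums of 1772 and 1207 RPKM. The means of all 4 thalamus genes were lower, with a median log2 ratio of -0.22. Their sum of 26.2 RPKM in control and 12.5 RPKM in CUMS rested on Prkcd (17.225 and 4.3 RPKM), and the intervals of Tcf7l2, Slc17a6 and Rgs16 included equal levels. Of 3 oligodendrocyte precursor genes 2 were lower (27.1 and 24.2 RPKM) and of 4 endothelial genes 3 were lower (57.5 and 42.7 RPKM). Interneuron genes were divided, with 5 of 10 higher and sums of 738 and 671 RPKM. Astrocyte genes (3 of 6 higher, 354 and 335 RPKM) and microglia genes (4 of 6 higher, 132 and 140 RPKM) had medians of 0.02 and 0.08. The part of these differences in the values of the 7 upper-layer genes was not tested.

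**Figure D5:**
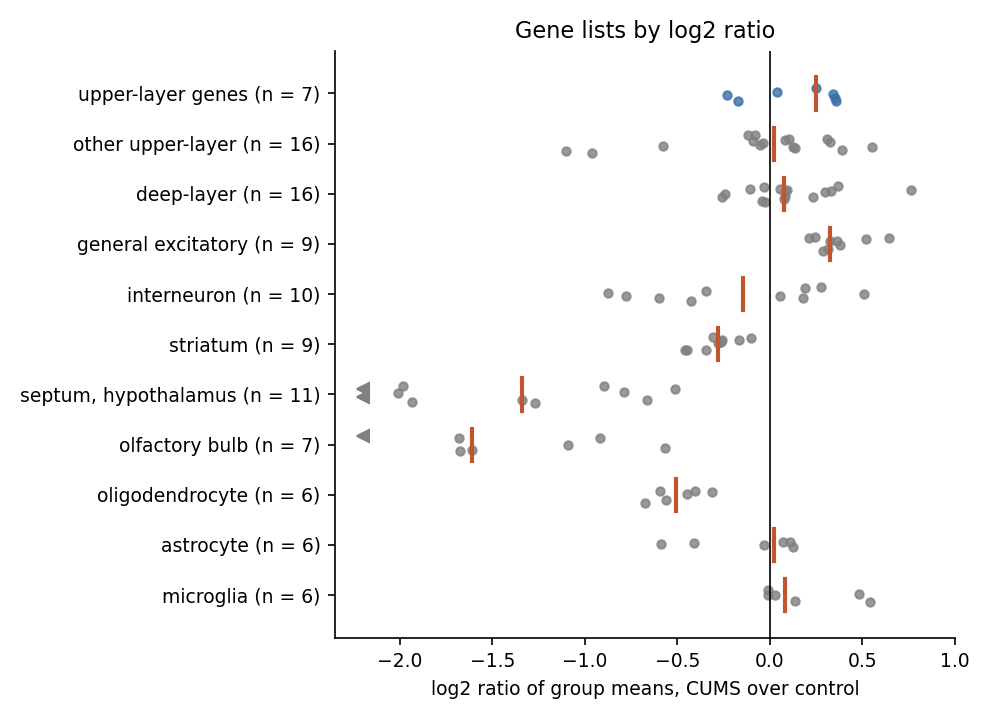
Log2 ratio of CUMS over control for each gene that reached 0.5 RPKM in a group, by gene list (points) with the list's median (red bar); 3 genes below the axis are drawn as arrows at -2.2. The median of the upper-layer genes (blue, 0.25) lies between the medians of the other upper-layer genes (0.02) and the general excitatory genes (0.33). Single upper-layer genes range from -0.23 to 0.36. All striatal, septal and hypothalamic, olfactory bulb and oligodendrocyte genes lie left of 0.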

How the data were processed

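Per the labels, 2 control and 2 CUMS mPFC libraries were grouped by title. The submitters' processing notes and the methods name TopHat 1.0.12, Bowtie 0.11.3 and mm10. The gene annotation and strand setting are not given in the sources used here. The authors computed RPKM from uniquely aligned reads and deposited 1 mean per gene and group, with 0.01 in place of 0. Fold changes and NOISeq probabilities of the authors were in the table and were not used. No other value column was left out.

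Log2 ratios were taken from the 2 means without a pseudocount. Depth was estimated from the step that 1 fragment adds to the product of mean and gene length, in genes under 1000 bases with products under 350. Of these products, 86.0% in control and 85.2% in CUMS were whole multiples of the step to a tolerance of 0.15 steps. This depth lies below the read numbers of the study, which was not resolved, so that other depths were tried. Intervals of log2 ratios between groups and between neighbours in level were exact Clopper-Pearson (scipy 1.17.1, Python 3.11.15). Bars of single levels were exact Poisson intervals, and differences between log2 ratios of a pair of genes had a normal approximation. The depth estimate and intervals were run on data simulated with counting error only. Such data hold no difference between mice and cannot account for the lower depth. The methods do not mention removal of PCR duplicates, and group means do not allow it. Gene spans came from RefSeq and transcripts from GENCODE M21, both GRCm38. The members and lists were chosen with earlier results of these data known. All 7 members were named, and other genes by the extremes and intervals of their lists or their role. The planned limma test was not run, since it needs a value per library. Some genes of the lists were counted but are not reported here by name.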

Additional observations from a re-analysis of the deposited data

How the results depend on the processing

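Values per library were not in the table, which limits every result to group means. No paired analysis was possible because the columns carry group means only, and leaving out a replicate was not possible for the same reason. Of 84 values under alternatives, 71 stayed within their counting interval or within 1.5 times the count, 11 moved and 2 reversed. Some of the 71 could not move, so that this count is not a measure of robustness. Rescaling leaves the difference between the medians of the 7 genes and the deep-layer genes as it was, at 0.17. Dropping the filter changed nothing, since all genes of the upper-layer and deep-layer lists had passed it. Rescaling to general excitatory neuron genes, which subtracts 0.33 from every log2 ratio by construction, reversed Rorb (-0.075) and the median of the 7 genes (-0.075), which is Rorb itself. It also left 3 genes higher in CUMS, each with an interval that included 0. The median of the other upper-layer genes moved to -0.30 and that of the deep-layer genes to -0.25. Rescaling to a median of 0 or to an equal total over genes of at least 5 RPKM shifted ratios by less than 0.01 and changed no direction. A fold threshold of 1.2 was passed by 3 genes (Cux2, Calb1 and Mef2c) and a threshold of 2 by 0. The shares of all genes that pass these thresholds are not given, so that the counts are not a result about the 7 genes. With the depth at 0.5 of the estimate, 3 of the 7 intervals excluded equal levels in place of 5 (Cux1 and Rorb were lost). At 2 times the estimate 6 did (Pou3f2 was gained), since the number of fragments sets the width. The share of all genes whose interval excludes equal levels changes with depth as well. It is not given for these depths, so that these counts are not a result about the 7 genes. The median of the 7 genes, 0.25, ranged from 0.15 to 0.30 when single genes were left out, was 0.34 over genes of at least 5 RPKM, and was 0.22 and 0.20 with pseudocounts of 0.5 and 1 RPKM.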
